A study of Homo sapiens with 6 samples.

Results

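MHC class I antigen presentation was followed through 9 genes in the transcriptomics data of UWB1.289 cells, which are HLA-B, HLA-C, HLA-E, HLA-F, B2M, TAP1, TAP2, TAPBP and NLRC5. The genes were taken by name, and each symbol was found at 1 identifier, so they make up 9 of the 63677 identifiers in the count table. All 9 passed the filter (above 10 counts over the 6 samples) and so were among the 21729 genes tested. UWB1.289 is a human cell line from an ovarian cancer that lacks BRCA1, and Olaparib inhibits the poly(ADP-ribose) polymerases PARP1 and PARP2. Cells of this 1 line were kept for 24 h in 4 µM Olaparib (3 samples) or in its solvent DMSO (3 samples). The sample labels give the genotype of both groups as WT. The dose is 4 µM in these labels but 10 µM in the design text of the series. The comparison addresses the response of these cells to PARP inhibition at the RNA level. The sequenced RNA was enriched for poly(A), and the libraries held 35360458 to 39640775 counts each.

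MHC class I molecules show peptides from inside the cell to CD8+ T cells and natural killer cells. A heavy chain pairs with beta-2-microglobulin in the endoplasmic reticulum, and the pair is held in the peptide-loading complex, where tapasin bridges it to the TAP transporter, a dimer of TAP1 and TAP2 that pumps peptides in from the cytosol. HLA-B and HLA-C encode classical heavy chains, which present peptides to T cells and engage receptors of natural killer cells, and HLA-E and HLA-F encode non-classical ones. HLA-E is a ligand of the natural killer cell receptor NKG2A, B2M encodes beta-2-microglobulin, TAPBP encodes tapasin, and NLRC5 encodes the coactivator that drives transcription of class I genes. Interferons raise the pathway in most cell types, through IRF1 and NLRC5 among others, and many tumors lower it.

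Matches to known promoter elements, which the list did not use, were found in some of the genes, and no element was found in all windows. The proximal promoters are shown here because factors named further on can bind such elements. The windows were taken from RefSeq on GRCh38.p14 and run from 250 bases before to 50 bases after the gene start, and 7 of the 9 genes were matched (HLA-B, HLA-C, HLA-F, B2M, TAP1, TAP2 and TAPBP). The windows printed are those of the 2 classical heavy chains listed, of their light chain, and of a transporter and a loading gene. The heavy chain genes are highly polymorphic, and these are the letters of the reference and not of UWB1.289. They lie at chr6:31357130-31357429 on the minus strand (HLA-B), chr6:31272043-31272342 on the minus strand (HLA-C), chr15:44711267-44711566 on the plus strand (B2M), chr6:32853655-32853954 on the minus strand (TAP1) and chr6:33314029-33314328 on the minus strand (TAPBP). Each is written 5′ to 3′ along its gene, with matches to any of the searched motifs in capitals.
HLA-B: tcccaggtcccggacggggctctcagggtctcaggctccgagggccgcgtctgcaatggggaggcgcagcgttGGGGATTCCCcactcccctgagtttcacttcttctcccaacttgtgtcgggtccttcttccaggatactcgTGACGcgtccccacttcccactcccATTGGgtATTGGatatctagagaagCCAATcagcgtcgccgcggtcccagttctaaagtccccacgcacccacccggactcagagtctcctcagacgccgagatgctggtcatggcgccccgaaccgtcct
HLA-C: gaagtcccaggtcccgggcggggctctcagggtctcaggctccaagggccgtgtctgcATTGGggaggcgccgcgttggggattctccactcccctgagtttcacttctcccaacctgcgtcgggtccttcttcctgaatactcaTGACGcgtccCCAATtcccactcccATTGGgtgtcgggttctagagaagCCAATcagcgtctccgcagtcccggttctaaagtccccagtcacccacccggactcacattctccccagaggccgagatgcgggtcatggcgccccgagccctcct
B2M: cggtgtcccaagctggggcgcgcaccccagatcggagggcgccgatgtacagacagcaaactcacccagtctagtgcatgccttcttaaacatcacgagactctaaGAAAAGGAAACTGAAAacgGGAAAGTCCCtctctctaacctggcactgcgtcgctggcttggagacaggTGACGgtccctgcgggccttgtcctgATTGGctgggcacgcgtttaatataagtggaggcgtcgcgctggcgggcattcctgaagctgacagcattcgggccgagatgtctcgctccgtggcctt
TAP1: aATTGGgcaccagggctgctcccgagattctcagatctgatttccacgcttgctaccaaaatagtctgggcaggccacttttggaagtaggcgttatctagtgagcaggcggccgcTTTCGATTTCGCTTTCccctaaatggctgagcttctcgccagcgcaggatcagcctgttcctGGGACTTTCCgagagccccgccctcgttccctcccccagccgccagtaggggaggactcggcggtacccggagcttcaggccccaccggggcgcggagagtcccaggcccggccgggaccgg
TAPBP: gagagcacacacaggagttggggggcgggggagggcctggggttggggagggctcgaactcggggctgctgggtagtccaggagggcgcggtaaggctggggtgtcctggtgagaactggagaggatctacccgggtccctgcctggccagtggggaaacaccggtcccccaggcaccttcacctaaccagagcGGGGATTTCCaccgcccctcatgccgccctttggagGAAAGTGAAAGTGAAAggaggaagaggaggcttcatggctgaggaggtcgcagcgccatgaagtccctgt

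The letters were searched on both strands for 5 motifs. The core of the interferon-stimulated response element (GAAANNGAAA), which IRF factors bind, was found in 5 of the 7 windows (HLA-F, B2M, TAP1, TAP2 and TAPBP) and in 3.65% of the 27305 promoters of the RefSeq table. In B2M, TAP1 and TAPBP there were 2 matches that overlapped each other, so each capital run there covers both. The kappa B site (GGGNNTTNCC), bound by NF-kB, was found in 4 of the 7 (HLA-B, B2M, TAP1 and TAPBP) and in 5.67% of all promoters. The CRE core (TGACG), part of the X box of class I promoters, was found in 4 (HLA-B, HLA-C, B2M and TAP2) against 25.0% of all promoters, and the CCAAT box of NF-Y in 5 (HLA-B, HLA-C, HLA-F, B2M and TAP1) against 35.7%. The gamma-activated site (TTCNNNGAA) had no match in the 7 windows and was found in 7.88% of all promoters. HLA-B and HLA-C placed their last CCAAT match at the same distance from the start, from base -56 to base -52, and their CRE cores began 106 and 105 bases before the start. A match is a description of the letters in the window and not a bound site. A window without a match to these exact letters may still hold a variant of the element.

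**Figure D1:**
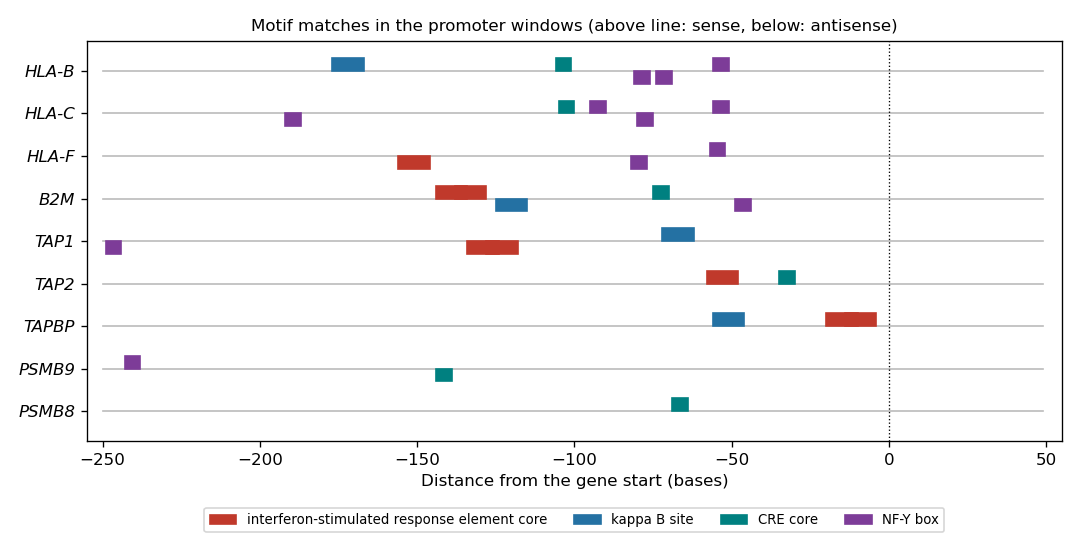
Motif matches in the promoter windows of the 7 matched class I genes and of the immunoproteasome genes PSMB9 and PSMB8, drawn by distance from the gene start in bases (dotted line at 0), with sense matches above and antisense matches below each line. The interferon-stimulated response element core (red) appears in 5 of the 7 class I windows, and the NF-Y box is the CCAAT box of the text.

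At the RNA level the pathway was present in every sample, with a wide range between its parts. Levels were compared between genes as RPKM, reads scaled to the length of the canonical transcript (per kilobase) and to the library (per 1000000 counts), with the mean over the 6 samples. B2M was the most abundant gene at 351 RPKM (range 338 to 363). HLA-B had 80.3 RPKM (74.5 to 86.9) and HLA-C 79.1 (76.1 to 82.9), and their ranges overlapped. HLA-E followed at 27.7 RPKM and TAPBP at 22.5. TAP1 had 5.63 RPKM (5.10 to 6.31) and TAP2 5.20 (4.96 to 5.38), again with overlapping ranges, whereas the other neighbors in this order did not overlap. HLA-F had 1.19 RPKM, and NLRC5 was the lowest at 0.365 RPKM (0.303 to 0.431). Of the summed RPKM of the 4 heavy chains listed, HLA-B made up 41.5% to 43.6% across samples, HLA-C 41.1% to 42.6%, HLA-E 14.2% to 15.4% and HLA-F 0.541% to 0.781%. With all exons of a gene joined in place of the canonical transcript, HLA-C came second (48.7 RPKM) and HLA-B the next (26.7 RPKM), so their order rested on the length used. The shares of the 4 moved with it to 25.8% to 27.5% for HLA-B, 47.8% to 49.5% for HLA-C, 23.4% to 25.1% for HLA-E and 0.350% to 0.506% for HLA-F. The heavy chain genes are highly polymorphic, and how well the alleles of this line match the reference was not tested. Of the 50-base stretches of the exons, 42.3% of those of HLA-B and 5.79% of those of HLA-C occur in another gene as well.

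**Figure D2:**
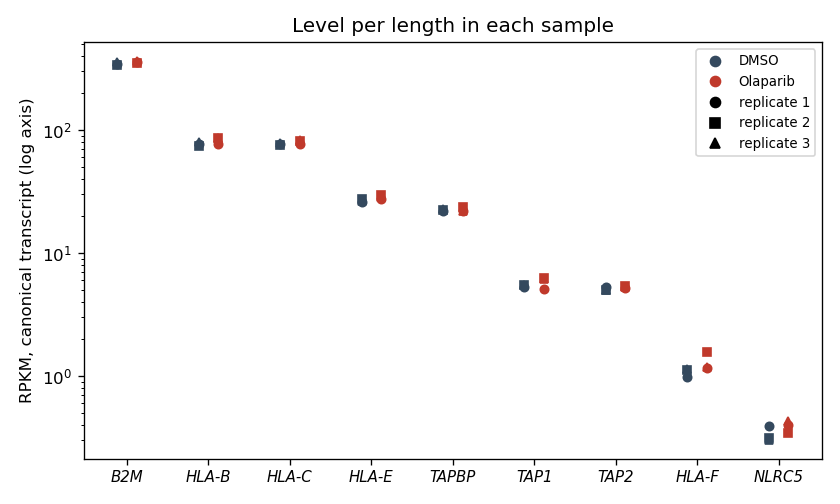
Level of each class I gene as RPKM over the canonical transcript, on a log axis, with 1 point per sample, colored by treatment and shaped by replicate number. B2M lies near 351 RPKM and NLRC5 near 0.365, and the points of HLA-B and HLA-C, and those of TAP1 and TAP2, overlap.

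After Olaparib none of the 9 class I genes passed the test in either direction. The 2 groups were compared with the quasi-likelihood test of edgeR, p values were adjusted over all genes tested by the Benjamini-Hochberg method, and a gene was called at an adjusted p value under 0.05. In that test 0 of the 9 genes were called higher, against 2.15% of all genes tested, and 0 were called lower, against 1.21%. With the further condition of a change above 1.2-fold, 0 of the 9 were called higher, against 0.723%. At an unadjusted p under 0.05, 2 of the 9 were higher (HLA-B and HLA-E), against 7.83% of all genes, and 0 were lower, against 6.97%. DESeq2 and limma voom also called 0 of the 9, with the same 2 genes at an unadjusted p under 0.05. For HLA-F and NLRC5, DESeq2 gave no adjusted p. The fitted log2 fold change was above zero for 8 of the 9, against 10564 of all 21729 genes tested. Its median was 0.10 over the 9 and -0.0042 over all genes tested. The median of the 9 was 0.055 without Olaparib replicate 2 and 0.13 without Olaparib replicate 1. For 7 of the 9 genes the upper end of the 95% interval stayed below a 1.2-fold rise (0.26 on the log2 scale). This held for 12841 of all 21729 genes tested. The 2 exceptions among the 9 were HLA-F and NLRC5, the genes with the fewest counts. In bulk RNA, more RNA per cell and more cells with the RNA cannot be told apart.

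**Figure D3:**
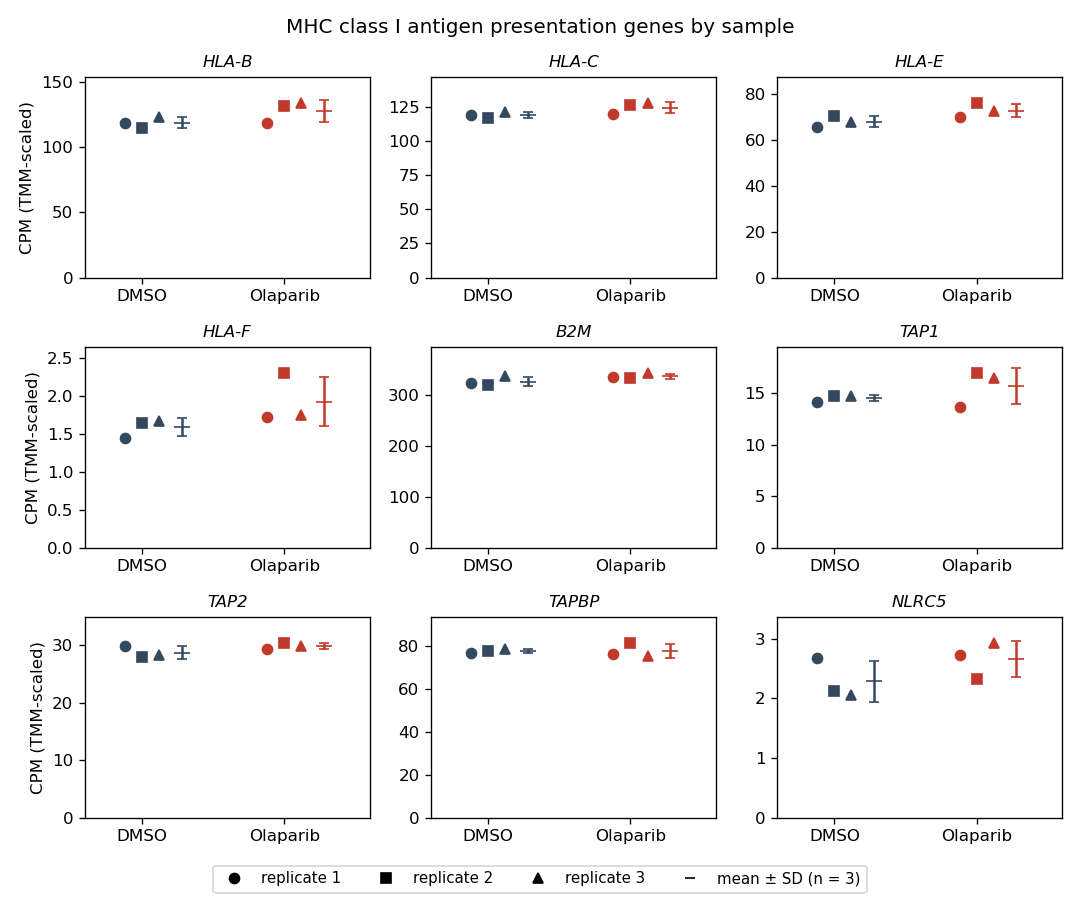
CPM (counts per 1000000 counts of the TMM-scaled library) of the 9 class I genes in each of the 3 DMSO and 3 Olaparib samples, with the mean ± SD (n = 3) beside the points and each axis starting at 0. Points of the 2 groups overlap for 8 genes, and for HLA-F the lowest Olaparib sample (1.73 CPM) lies above the highest DMSO sample (1.67 CPM).

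Among the heavy chains, levels within a gene are given as CPM, the counts of a gene per 1000000 counts of the TMM-scaled library. HLA-B (ENSG00000234745, chromosome 6, 31353872 to 31367067, GRCh38) had 118, 132 and 133 CPM in Olaparib replicates 1, 2 and 3, and 119, 114 and 123 CPM in DMSO replicates 1, 2 and 3. Olaparib replicates 2 and 3 lay above all DMSO samples, and Olaparib replicate 1 lay among them. The means were 128 ± 8.31 CPM (SD, n = 3) after Olaparib and 119 ± 4.30 CPM (n = 3) after DMSO, a log2 fold change of 0.11 (95% interval 0.027 to 0.19, edgeR adjusted p = 0.147). Without Olaparib replicate 1, HLA-B was called higher (log2 fold change 0.16, edgeR adjusted p = 0.00847), while without any other 1 sample it was not. The fit without Olaparib replicate 1 called 567 of 21099 genes higher, against 467 of 21729 with all samples.

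HLA-C (ENSG00000204525, chromosome 6, 31268749 to 31272130) showed a similar arrangement of samples to HLA-B, with Olaparib replicates 2 and 3 above all DMSO samples. It had 120, 126 and 128 CPM after Olaparib and 119, 117 and 121 CPM after DMSO, with the first Olaparib replicate again inside the DMSO range. The means were 125 ± 4.18 and 119 ± 2.05 CPM (SD, n = 3 each), and the log2 fold change was 0.063 (95% interval -0.0067 to 0.13, edgeR adjusted p = 0.405). HLA-E (ENSG00000204592, chromosome 6, 30489509 to 30494194), the NKG2A ligand, had 70.0, 76.0 and 72.6 CPM after Olaparib and 65.8, 70.4 and 68.0 CPM after DMSO. Only DMSO replicate 2 reached into the Olaparib range. Its log2 fold change was 0.098 (95% interval 0.015 to 0.18, edgeR adjusted p = 0.223), from means of 72.9 ± 3.02 and 68.1 ± 2.28 CPM.

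HLA-F (ENSG00000204642, chromosome 6, 29722775 to 29738528), whose open form is a ligand of natural killer cell receptors, was scarce. It had 64, 84 and 66 counts in the Olaparib samples, which are 1.73, 2.30 and 1.75 CPM, and 52, 63 and 66 counts in the DMSO samples, which are 1.45, 1.65 and 1.67 CPM. It was the 1 gene of the 9 in which all Olaparib samples lay above all DMSO samples, against 10.0% of all genes tested, and the gap between the groups was narrow. Counting error alone was 12.3% of a mean count at this depth. The log2 fold change was 0.27 (95% interval -0.045 to 0.59, edgeR adjusted p = 0.438), and it was 0.13 (adjusted p = 0.816) without Olaparib replicate 2. The interval of HLA-F spans a fold of 0.969 to 1.50.

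B2M (ENSG00000166710, chromosome 15, 44711358 to 44718851), the light chain and the most deeply counted of the 9, varied little. It had 335, 332 and 342 CPM after Olaparib and 323, 318 and 336 CPM after DMSO. The groups overlapped, since DMSO replicate 3 lay above 2 of the Olaparib samples. The means were 336 ± 5.08 and 326 ± 9.16 CPM (SD, n = 3 each), with a log2 fold change of 0.046 (95% interval -0.012 to 0.10, edgeR adjusted p = 0.492), which is a fold of 1.03 (0.991 to 1.07).

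The transporter and loading genes were not called either. TAP1 (ENSG00000168394, chromosome 6, 32845209 to 32853816) had 13.7, 16.9 and 16.5 CPM after Olaparib and 14.2, 14.7 and 14.7 CPM after DMSO. The first Olaparib replicate was the lowest of all 6 samples and the other two the highest. The log2 fold change of TAP1 was 0.11 (95% interval -0.015 to 0.24, edgeR adjusted p = 0.424), and without Olaparib replicate 1 it was called higher (0.20, edgeR adjusted p = 0.0338). It was 0.054 (edgeR adjusted p = 0.801) without Olaparib replicate 2 and 0.072 (edgeR adjusted p = 0.762) without Olaparib replicate 3. TAP2 (ENSG00000204267, chromosome 6, 32821833 to 32838739), its partner in the transporter, had 29.4, 30.4 and 29.9 CPM after Olaparib and 30.0, 28.005 and 28.3 CPM after DMSO, so that DMSO replicate 1 lay inside the Olaparib range. Its log2 fold change was 0.056 (95% interval -0.036 to 0.15, edgeR adjusted p = 0.626). TAPBP (ENSG00000231925, chromosome 6, 33299694 to 33314284), which encodes tapasin, had 76.3, 81.2 and 75.3 CPM after Olaparib and 76.5, 77.8 and 78.5 CPM after DMSO, and the Olaparib samples lay on both sides of the DMSO samples. Its means were 77.6 ± 3.14 and 77.6 ± 1.00 CPM (SD, n = 3 each), with a log2 fold change of -0.00031 (95% interval -0.080 to 0.079, edgeR adjusted p = 0.998), and its sign changed with the scaling and the filter.

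NLRC5 (ENSG00000140853, chromosome 16, 56989485 to 57083531), the class I coactivator, had 2.73, 2.33 and 2.92 CPM after Olaparib and 2.68, 2.12 and 2.05 CPM after DMSO. DMSO replicate 1 lay inside the Olaparib range, and the other DMSO samples lay below all Olaparib samples. The log2 fold change was 0.23 (95% interval -0.051 to 0.50, edgeR adjusted p = 0.470), a fold of 1.17 (0.965 to 1.42). NLRC5 held 81 to 110 counts per sample, at which counting error alone was 10.4% of the mean count.

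**Figure D4:**
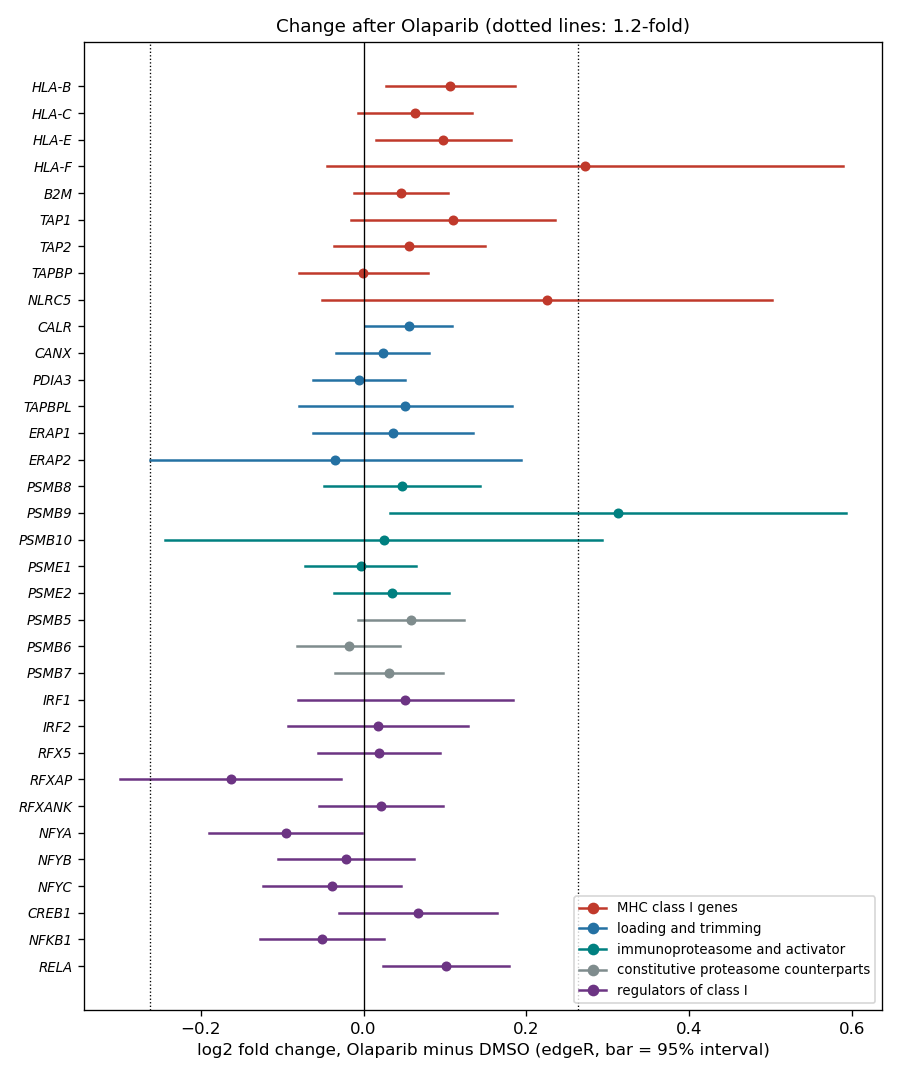
Fitted log2 fold change, Olaparib minus DMSO, with its 95% interval from edgeR, for the 9 class I genes (red) and for genes of loading, the proteasome and class I regulation, with dotted lines at a 1.2-fold change in either direction. The intervals of 7 of the 9 class I genes end below the upper dotted line, against 12841 of all 21729 genes tested. None of the genes drawn here passed the test.

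The balance between partners was compared within each library as a ratio of RPKM, so that depth cancels. The ratio of HLA-B to HLA-C was 0.990 to 1.05 after Olaparib and 0.979 to 1.02 after DMSO (difference of log2 ratios 0.042, exact permutation test, two-sided p = 0.3). That of TAP1 to TAP2 was 0.977 to 1.17 after Olaparib and 0.993 to 1.10 after DMSO (difference 0.049, exact permutation p = 0.6). B2M exceeded the sum of the 4 heavy chains listed in every library, with ratios of 1.77 to 1.94 after Olaparib and 1.88 to 1.91 after DMSO (difference -0.042, exact permutation p = 0.4). With joined exons that ratio was 1.01 to 1.10 over the 6 libraries, so its size rested on the length used. The groups overlapped in these 3 ratios. In all, 6 ratios were tested, and 3 samples against 3 cannot give a p below 0.1 in this test.

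Replicates of a group differed in a pattern that several of the 9 genes shared. When each gene was standardized over the 6 samples (log2 CPM minus its mean, divided by its SD), the mean over the 9 genes was -0.19 in Olaparib replicate 1, 1.05 in replicate 2 and 0.70 in replicate 3. It was -0.52, -0.74 and -0.29 in DMSO replicates 1, 2 and 3. Olaparib replicates 2 and 3 were above the gene's own mean in 8 of the 9 genes each, Olaparib replicate 1 in 3 (B2M, TAP2 and NLRC5), and the DMSO samples in 2, 1 and 2. Olaparib replicate 1 lay clearly below the other two in HLA-B, HLA-C and TAP1, whereas in B2M, TAPBP and NLRC5 it lay between them. It was also the lowest Olaparib sample in HLA-E (-0.11, against 1.53 and 0.61) and TAP2 (0.13, against 1.07 and 0.58). In HLA-F it lay just below replicate 3. The genes did not move as 1 block, since the Pearson r between pairs of them over the 6 samples ran from -0.67 to 0.99 with a median of 0.42 over 36 pairs. Olaparib replicate 1 held 37186909 counts in total, between the 36683745 and 37686666 of the other two.

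**Figure D5:**
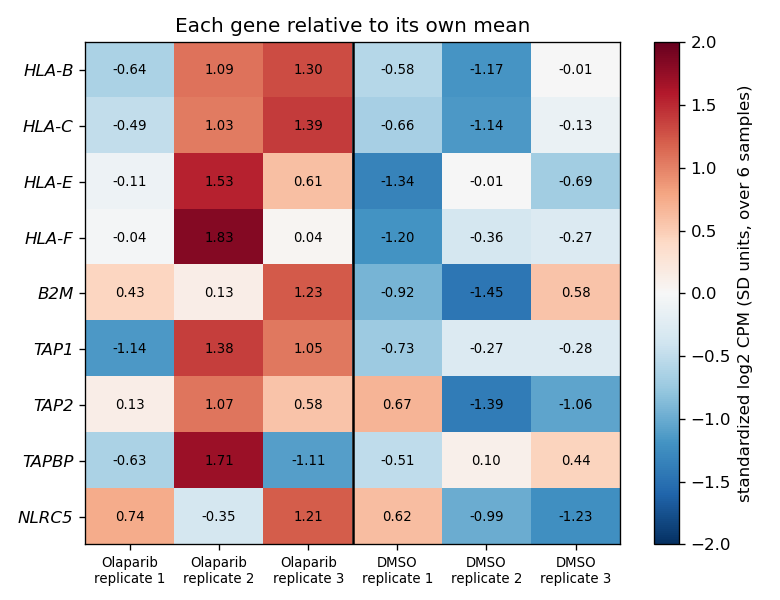
Standardized log2 CPM of each class I gene in each sample, in SD units over the 6 samples, with red above and blue below the gene's own mean and the value written in each cell. Olaparib replicates 2 and 3 are red for 8 of the 9 genes each, and Olaparib replicate 1 is red for 3.

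Genes with the most similar pattern were sought among the 11997 genes with at least 100 counts on average, by Pearson r over the 6 samples with the mean standardized level of the 9. The 5 highest outside the list were ADPRS (r = 0.998), KRT81 (0.997), TRIR (0.996), RPSA (0.994) and MRPL55 (0.993). ADPRS encodes an ADP-ribosylserine hydrolase, which removes the mark that PARP1 places, KRT81 a keratin, RPSA a cytosolic ribosomal protein and MRPL55 a mitochondrial ribosomal protein. With the group means removed, r was 0.980 to 0.995. The 5 were picked by r over these same 6 samples, so this is no separate evidence of likeness within a group. Of the 5, KRT81 was called higher (log2 fold change 0.29, edgeR adjusted p = 0.0149). In edgeR its adjusted p was 0.144 without Olaparib replicate 2, 0.0940 without Olaparib replicate 3, 0.0638 without DMSO replicate 1 and 0.110 without DMSO replicate 2, and in DESeq2 with all samples it was 0.0619. ADPRS had 51.4, 56.2 and 54.8 CPM after Olaparib and 50.3, 49.0 and 50.9 CPM after DMSO, with a log2 fold change of 0.11 (edgeR adjusted p = 0.163). The points of each r share their libraries and depth, and these 5 were the highest of many, so r is a description.

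The presentation pathway beyond the 9 was followed in the 43 further genes reported here, of which 36 passed the filter. Of these 36, 0 were called higher in the edgeR test, against 2.15% of all genes tested, and 0 were called lower, against 1.21%. DESeq2 and limma voom called 0 of the 36 as well. At an unadjusted p under 0.05 in edgeR, 3 of the 36 were higher (CALR, PSMB9 and RELA), against 7.83% of all genes, and 2 lower (RFXAP and NFYA), against 6.97%, all 5 named after their values were seen. The 36 genes had a median log2 fold change of 0.020.

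The 11 regulators of class I promoters reported here were not called in either direction. They are IRF1 and IRF2, which bind the response element, the RFX and NF-Y subunits and CREB1 of the complex that NLRC5 joins, and the NF-kB subunits NFKB1 and RELA. Of the 11, 6 had a fitted change above zero and 5 below, from -0.16 to 0.10. RFXANK, the regulator with the highest RPKM, had a log2 fold change of 0.021 (edgeR adjusted p = 0.862). RELA, which was among the highest too, had 85.3, 89.0 and 84.8 CPM after Olaparib and 77.8, 82.3 and 81.4 CPM after DMSO, separate groups with a log2 fold change of 0.10 (edgeR adjusted p = 0.165). RFXAP had a log2 fold change of -0.16 (edgeR adjusted p = 0.209) and was called lower only without Olaparib replicate 1 (-0.24, adjusted p = 0.0462).

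Genes that load and trim peptides, and the proteasome genes that make them, were not called. Among the 6 of loading and trimming, the log2 fold changes ran from -0.035 to 0.055. CALR, the chaperone calreticulin, had a log2 fold change of 0.055 (edgeR adjusted p = 0.305), CANX, calnexin, 0.023 (edgeR adjusted p = 0.773), and PDIA3, the disulfide isomerase of the loading complex, -0.0059 (edgeR adjusted p = 0.953). The 5 genes of the immunoproteasome and its activator ran from -0.0037 to 0.31. PSMB9, an immunoproteasome subunit beside TAP1 on chromosome 6, had the 0.31 (95% interval 0.032 to 0.59, edgeR adjusted p = 0.260), with 2.30, 2.16 and 2.66 CPM after Olaparib and 1.82, 1.96 and 1.95 CPM after DMSO. Its groups were separate, at 65 to 100 counts per sample. The ratio of PSMB9 to PSMB6, the constitutive subunit it replaces, was 0.00946 to 0.0118 after Olaparib and 0.00819 to 0.00851 after DMSO (difference of log2 ratios 0.33, exact permutation p = 0.1, adjusted p = 0.6 over the 6 ratios), and 0.1 is the smallest p this test can give. The ratios of PSMB8 to PSMB5 (difference -0.011, exact permutation p = 0.5) and of PSMB10 to PSMB7 (difference -0.019, exact permutation p = 0.8) overlapped between groups.

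Class I-like molecules and class II genes showed no called change either. Of the 4 class I-like genes, FCGRT, the neonatal Fc receptor, had a log2 fold change of -0.024, MR1, which presents vitamin B metabolites, -0.080, and HFE, of iron uptake, 0.022. MHC class II presents peptides to CD4+ T cells and depends on the coactivator CIITA, a relative of NLRC5. CIITA had 3 counts over the 6 samples, HLA-DPA1 6, HLA-DPB1 4, HLA-DQA1 1, and HLA-DRA and HLA-DOA 0, all under the filter. The other 6 of the 12 class II genes passed it, with log2 fold changes from -0.43 to 0.31. The lowest was HLA-DRB1, with 12 counts over the 6 samples, and the highest HLA-DOB, with 164, both named after their values were seen. Among the 6 genes that passed, HLA-DMA had 260 counts over the 6 samples and HLA-DQB1 299. The invariant chain gene CD74 was the most abundant of the class II list at 111 ± 1.91 CPM after Olaparib and 109 ± 3.92 CPM after DMSO (SD, n = 3 each), with a log2 fold change of 0.036 (edgeR adjusted p = 0.716). Of the interferon ligands, IFNG had 6 counts in total and stayed under the filter. IFNB1 had 11 counts in total and was just above it.

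Of the 9 genes, 7 lie in the MHC region on chromosome 6, and the neighborhood from 28000000 to 34000000 was examined for changes around them. It held 401 other listed genes, of which 191 were tested. Of these, 0 were called higher, against 2.15% of all genes, and 2 were called lower, against 1.21%. At an unadjusted p under 0.05 in edgeR's test, 3 of the 191 were higher, against 7.83% of all genes, and 15 were lower, against 6.97%. ZSCAN31, a zinc finger gene (28324693 to 28356271), had 7.73, 8.50 and 8.02 CPM after Olaparib and 11.8, 12.9 and 13.1 CPM after DMSO, and fell by 0.64 on the log2 scale (edgeR adjusted p = 5.7e-08). RPP21, a ribonuclease P subunit gene (30345131 to 30346884), fell by 0.77 on the log2 scale (edgeR adjusted p = 0.0399), from 0.922 to 1.06 CPM after DMSO to 0.505 to 0.649 CPM after Olaparib. Of the exon bases of RPP21, 28.1% overlap the readthrough gene TRIM39-RPP21 on the same strand, so its counts are uncertain. DESeq2 gave RPP21 no adjusted p, and its call was lost in limma voom (adjusted p = 0.0609) and without any 1 sample other than Olaparib replicate 1 (adjusted p = 0.0744 to 0.181 in the edgeR test), while ZSCAN31 was called in each of the alternatives. The 191 genes had a median log2 fold change of -0.027.

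Reads of some class I genes could also be counted elsewhere. In the annotation, 47.3% of the exon bases of HLA-B overlap other genes, as do 28.02% of those of HLA-F, 21.0% of TAPBP, 19.5% of TAP2 and 14.2% of TAP1, and none of those of HLA-C, HLA-E, B2M and NLRC5. Of the overlapping partners found in the count table, those with more than 7 counts were the antisense HLA-F-AS1, with 566 counts over the 6 samples against 395 of HLA-F, and PSMB8-AS1, with 101 against 3394 of TAP1. The libraries were stranded, but the strand setting of the counting is not given in the sources used here, so HLA-F is uncertain in this respect. Among 50-base stretches of the exons, 42.3% of those of HLA-B and 21.2% of those of HLA-F occur in another gene as well. The share was 21.8% for TAPBP, 18.5% for TAP2, 12.8% for TAP1, 5.79% for HLA-C and 5.19% for HLA-E. It was 0 for B2M and NLRC5. At most 3.85% occur in another of the 9 genes.

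The cells carried the markers of an epithelial line. EPCAM, KRT7, KRT8, KRT18 and PAX8 were well counted, from 305 CPM (PAX8, DMSO) upward, while WT1, which many serous ovarian tumors express, had 8 counts in total. PAX8 was called higher (log2 fold change 0.10, edgeR adjusted p = 0.0399), a call that was lost without any 1 sample other than Olaparib replicate 1 (edgeR adjusted p = 0.0609 to 0.206) or with upper quartile factors (0.0604). Of 6 markers of leukocytes, which include the professional antigen-presenting cells, 3 were under the filter (CD3E with 6 counts, MS4A1 with 1 and ITGAX with 7). PTPRC, the defining gene CD45, had 1.89 CPM after Olaparib and 1.71 after DMSO, CD14 had 1.33 and 0.999 CPM, with separate groups and an edgeR adjusted p of 0.260, and ITGAM had 0.126 and 0.0969 CPM. Summed over the 6, the leukocyte markers had 3.19 to 3.78 CPM after Olaparib and 2.57 to 3.27 CPM after DMSO, and their part in the class I values was not tested. The endothelial marker PECAM1 had 0 counts, which allows up to 3 counts over the samples, whereas CDH5 had 40.8 and 42.9 CPM. The fibroblast markers DCN, LUM and PDGFRB had 4, 0 and 5 counts in total.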

How the data were processed

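RNA from 3 Olaparib and 3 DMSO samples of UWB1.289 cells was measured. The authors used Trimmomatic for adapters, STAR for mapping to GRCh38, Picard for marking duplicates and featureCounts for assigning reads, and the deposited values are raw counts per gene in whole numbers. Whether duplicates were removed is not given in the sources used here. Samples were grouped by their labels. The replicates are stated to be independent, with no further detail of how they relate to the dishes of this 1 line, so p-values measure only the spread between these samples. The 6 libraries held 35360458 to 39640775 counts, and replicates of a group differed by more than counting noise (chi-square per degree of freedom 1.81 to 4.11 over 15525 genes).

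Genes with more than 10 counts in total were kept, scaled by TMM and compared with edgeR 4.0.16 (quasi-likelihood test, Benjamini-Hochberg adjustment over 21729 genes, R 4.3.3). The test was also run on simulated data that gave every gene the same dispersion, so genes of unequal spread were not tried. DESeq2 1.42.0, limma 3.58.1 (voom), other scalings and filters, a replicate block and leaving out each sample were alternatives. Within-library ratios were compared by exact permutation tests over samples, two-sided. Intervals are 95% intervals of the fit, and counting errors and the floor of 3 counts cover counting error only. The table gives no gene lengths, so RPKM used canonical transcripts of GENCODE 44 on GRCh38, which held 81.9% of the identifiers, and its gene models may differ from those used for counting.

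The members and lists were chosen with earlier results of these data known. 1 gene of the regulator list is not reported here, and the counts, median and plot of that list leave it out. All members were named; of the lists, every gene called or under the filter and up to 3 of the highest RPKM, with the genes of the ratios; of the neighborhood, the called genes. Further genes are said in the text to have been chosen after their values were seen.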

Additional observations from a re-analysis of the deposited data

How the results depend on the processing

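The values and calls of the edgeR test were recomputed under 13 alternatives, changing 1 choice at a time, the ratios without each sample in turn, and the levels with joined exons, the last chosen after seeing the data. Of the values of the 9 class I genes, 108 kept their direction and remained uncalled, 3 passed the threshold and 6 changed sign, all 6 of them TAPBP. The 108 include the DESeq2 values of HLA-F and NLRC5, whose side of the threshold is not known. The number of class I genes called higher was 1 with the replicate block and ranged from 0 to 2 when 1 sample was left out, and it was 0 in each other alternative. The 2 were HLA-B (0.16, edgeR adjusted p = 0.00847) and TAP1 (0.20, edgeR adjusted p = 0.0338) without Olaparib replicate 1. Fewer samples entered these fits, which called 270 to 567 genes higher over all genes, against 467 with all samples. The 567, of 21099 genes tested, were those of the fit without Olaparib replicate 1. The number of the 36 other presentation genes called lower ranged from 0 to 1 (RFXAP). The log2 fold change of TAPBP was 2.8e-06 with relative log expression factors, 0.00072 with no filter on low counts, and -0.033 to 0.019 when 1 sample was left out. Among the ratios, the difference for PSMB8 to PSMB5 ranged from -0.026 to 0.0078 and that for PSMB10 to PSMB7 from -0.081 to 0.10 when 1 sample was left out, each with both signs. The cause of these changes was not tested. DESeq2 gave no adjusted p for HLA-F and NLRC5. No identifier shared a symbol with any of the 9, so no counts were summed over copies. The 4 genes without exon overlap were called in no alternative that gave them an adjusted p, and whether calls go with exon overlap was not tested.

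The replicate numbers are shared by the groups, but deviations from the group means of same-numbered samples correlated at -0.20, 0.26 and -0.32 over 11997 genes, so the numbers were not taken to pair the samples, and not every sample correlated best with its own number. With the replicate number as a block, the edgeR test called 805 genes higher and 517 lower over all genes, against 467 and 263 without it, and HLA-B was called (0.11, adjusted p = 0.0469). DESeq2 called 371 higher and 154 lower. Without single samples the genes called lower numbered 127 to 303. HLA-F and NLRC5, with the fewest counts of the 9, had intervals that reach a log2 fold change of 0.59 and 0.50.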
